A study of Mus musculus with 6 samples.

Results

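The circadian clock is a transcription loop whose outer arms are built by a small group of transcription factors, and the expression of these arms was examined in mouse osteoblasts given corticosterone. The genes were chosen by name, as 10 symbols: the REV-ERB receptors *Nr1d1* and *Nr1d2*, the opposing receptor *Rora*, the PAR-bZIP factors *Dbp*, *Tef* and *Hlf*, their antagonist *Nfil3*, and the repressors *Bhlhe40*, *Bhlhe41* and *Ciart*. Of these, 9 were matched by Ensembl identifier and GENCODE symbol among the 24016 genes with values, and *Hlf* is not analysed here.

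In the clock, CLOCK and BMAL1 (encoded by *Arntl*) bind E-box elements and drive the period and cryptochrome genes, whose products then inhibit CLOCK and BMAL1. REV-ERB receptors repress and ROR receptors activate genes through a shared element, and *Arntl* is among their targets. PAR-bZIP proteins activate and NFIL3 represses genes through the D-box. Glucocorticoids are known as a timing signal for clocks outside the brain, and *Per1* is a known target of the glucocorticoid receptor.

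MC3T3-E1, a line of preosteoblasts derived from mouse calvaria, was labelled as wild type and used as a single subclone. All cultures spent 6 days in differentiation medium, which held β-glycerophosphate at 10 mM and ascorbic acid at 50 μg/ml. They then received vehicle (3 cultures, described as biological replicates) or corticosterone at 100 nM (3 cultures), which is the chief glucocorticoid in mice, and the treatment text shared by every label lists 10 nM calcitriol for the 24 h of treatment. The growth text of the labels names passages 4 to 10 and their batch field passages 6 to 12, alike for all libraries, and RNA was taken at 1 time after treatment, so that no rhythm was measured.

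Values are normalized counts, that is, reads per gene divided by 1 size factor per library. The vehicle libraries held 19076586 to 25638645 counted reads and the corticosterone libraries 16020401 to 18992332, so that every corticosterone library was the shallower, and the part of depth in the results was not tested. *Tsc22d3*, *Fkbp5* and *Sgk1*, known targets of the glucocorticoid receptor, were higher in all 3 corticosterone libraries, with log2 fold changes of 1.49, 2.46 and 2.75. All 8 osteoblast markers examined (*Runx2*, *Sp7*, *Alpl*, *Ibsp*, *Bglap*, *Col1a1*, *Col1a2* and *Sparc*) had reads in every library, with a summed level of 186739 to 193573 normalized counts per kb of exon with vehicle and 158126 to 166654 with corticosterone, nearly all of it *Col1a1*, *Col1a2* and *Sparc*. All 8 were called lower with corticosterone (limma, adjusted p under 0.05), and 4 of them fell more than 2-fold, *Bglap* (-1.87 on the log2 scale), *Sp7* (-1.34), *Ibsp* (-1.20) and *Runx2* (-1.16). Of all genes, 8.2% were called lower, and 2.78% were called and changed more than 2-fold in either direction. Of the 4 adipocyte markers, 2 had values, *Fabp4* and *Plin1*, and their summed level was 1.72 to 4.70 with vehicle and 24.1 to 29.6 with corticosterone, nearly all of it *Fabp4*. Of the 4 macrophage markers, 2 had values (*Cd68* and *Csf1r*), with sums of 26.7 to 30.5 and 25.05 to 28.2. *Pecam1* and *Ckm*, the endothelial and muscle markers with values, had at most 9 reads in a library. Fewer cells of a type and less RNA per cell cannot be told apart in such bulk libraries, and the part of these marker levels in the results below was not tested.

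Of the 9 clock output genes, *Nfil3* and *Nr1d1* rose, *Bhlhe40* and *Tef* fell, and *Nr1d2*, *Rora*, *Dbp*, *Bhlhe41* and *Ciart* did not pass the test. Groups were compared by limma on log2(normalized count + 0.1), p-values were adjusted by Benjamini-Hochberg across every gene with values, and a call here is an adjusted p under 0.05. Among all 24016 genes, 8.49% were called higher and 8.2% lower, against 2 and 2 of the 9. Each member had a higher mean than 53% or more of these genes (least in *Ciart*). Shares among genes of a level similar to the members were not computed. No member changed more than 2-fold: 0 of 9 passed the study's threshold of an adjusted p under 0.05 together with an absolute log2 fold change over 1, which 2.78% of all genes passed. With limma, 5 of the 9 had an unadjusted p under 0.05, as did 26.3% of all genes, and edgeR and DESeq2 on the whole reads also put 0 members past the threshold and called the same number, 4. The 3 corticosterone libraries lay wholly above or below the 3 vehicle libraries in 6 members, a separation seen in 29.6% of all genes. The median log2 fold change was -0.21 over the members and -0.01 over all genes.

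**Figure D1:**
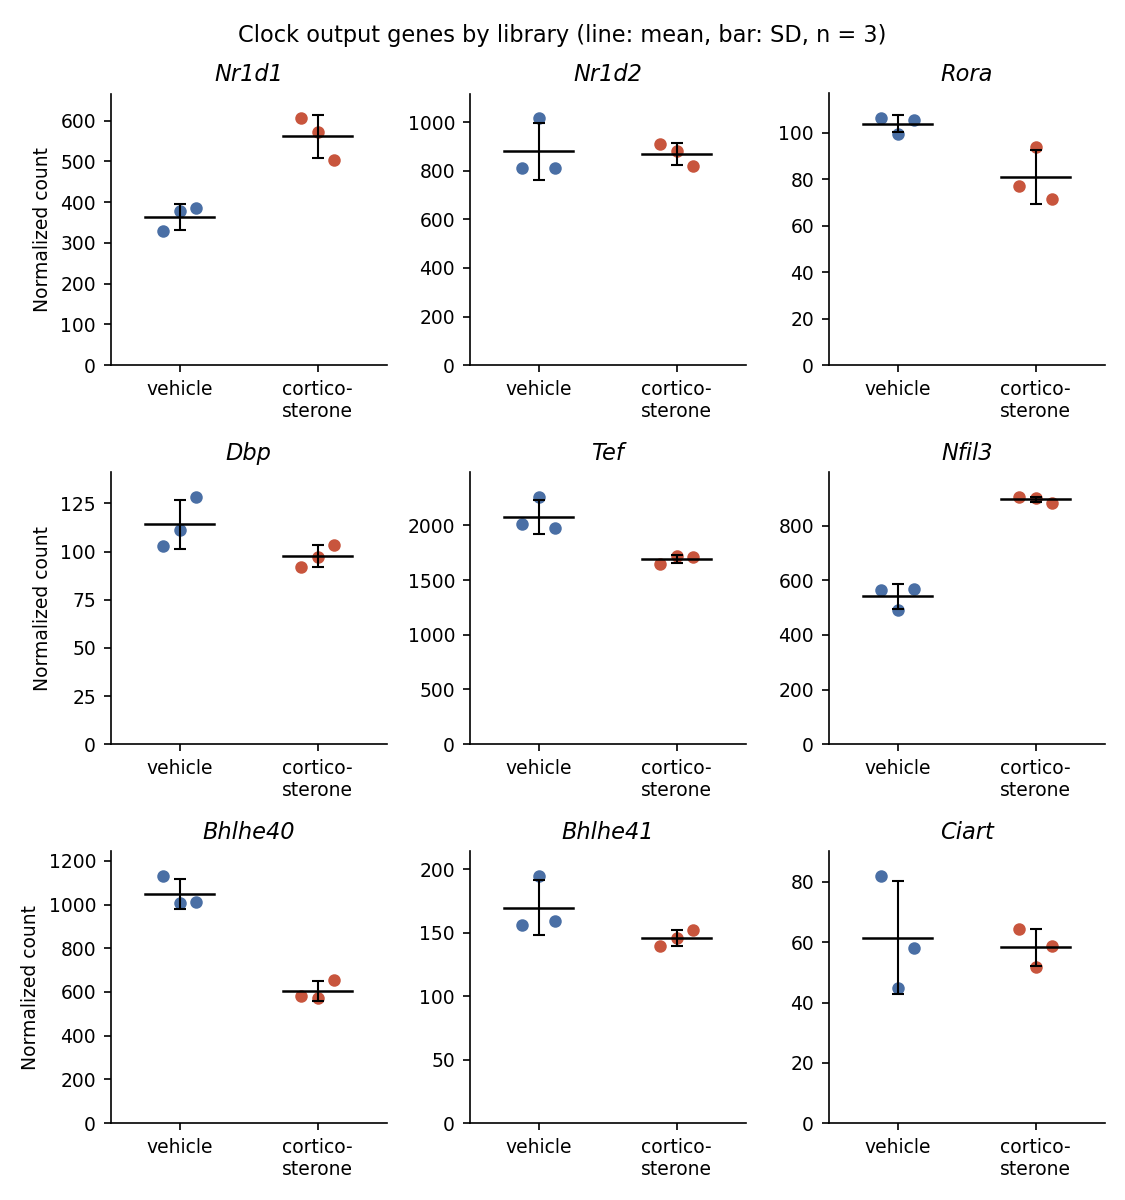
Normalized count of each clock output gene in each library (points, vehicle in blue and corticosterone in red), with the group mean (line) and SD (bar, n = 3). The groups are apart in *Nr1d1*, *Rora*, *Tef*, *Nfil3*, *Bhlhe40* and *Bhlhe41*, and overlap in *Nr1d2*, *Dbp* and *Ciart*.

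*Nr1d1* (ENSMUSG00000020889, chromosome 11, 98767932 to 98775333 of GRCm38, minus strand) encodes REV-ERBα, a heme-binding receptor that represses transcription. Its normalized counts were 328, 377 and 386 with vehicle and 606, 573 and 504 with corticosterone. Every corticosterone library exceeded every vehicle library. The mean rose from 364 ± 31.01 to 561 ± 52.0 (SD, n = 3 each), a change of 0.62 ± 0.09 (SE) on the log2 scale with an adjusted p of 5.0e-05 (limma). The 95% interval of the change ran from 1.36-fold to 1.75-fold.

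The 3′ end of *Nr1d1* overlaps *Thra*, a thyroid hormone receptor gene on the opposite strand, over 263 bases (98768157 to 98768419), or 8.55% of the exon length of *Nr1d1*. The strand setting of the counting is not given in the sources used here, and without strand, reads in this stretch cannot be told apart. *Thra* fell from 2091 ± 67.2 to 1609.8 ± 33.1 (SD, n = 3 each), a change of -0.38 on the log2 scale with an adjusted p of 1.8e-05 (limma), opposite to *Nr1d1*.

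*Nr1d2* (ENSMUSG00000021775, chromosome 14, 18204054 to 18239127, minus strand) encodes REV-ERBβ, the paralog of REV-ERBα. Its libraries had 811, 1016 and 812 with vehicle and 910.1, 880.3 and 820.03 with corticosterone. The corticosterone libraries lay within the vehicle range. Its log2 fold change of -0.01 ± 0.08 (SE) had an adjusted p of 0.98 (limma), and its 95% interval, from 0.884-fold to 1.12-fold, leaves out the 1.36-fold that bounds the rise of *Nr1d1* from below. One locus without values here, *AC170187.1*, shares 9.51% of the 31-base stretches (31-mers) of *Nr1d2*.

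*Rora* (ENSMUSG00000032238, chromosome 9, 68653786 to 69388246, plus strand) encodes RORα, which activates genes through the element that REV-ERB receptors occupy. Its normalized counts were 106, 99.6 and 106 with vehicle and 77.1, 93.9 and 71.6 with corticosterone. All 3 corticosterone libraries were below the vehicle range, with the second library only slightly so. Its log2 fold change of -0.37 ± 0.15 (SE) had an unadjusted p of 0.028 in limma that did not hold after adjustment over all genes (adjusted p = 0.12). Between 56 and 131 reads per library stood behind these values. Its 95% interval ran from 0.620-fold to 0.969-fold.

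The PAR-bZIP factors and NFIL3 compete for the D-box. *Nfil3* (ENSMUSG00000056749, chromosome 13, 52967209 to 52981073, minus strand), the repressor, had 565, 489 and 567 with vehicle and 904, 899 and 884 with corticosterone. The corticosterone libraries were all higher and close together, with a coefficient of variation of 1.15%, where the reads counted would give 3.57% from counting error. The mean rose from 540.4 ± 44.3 to 896 ± 10.3 (SD, n = 3 each), a change of 0.73 ± 0.07 (SE) on the log2 scale with an adjusted p of 6.0e-07 (limma), or 1.66-fold with a 95% interval of 1.504 to 1.83. None of its 31-mers lies in a transcript of another gene.

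*Tef* (ENSMUSG00000022389, chromosome 15, 81802421 to 81826863, plus strand), an activator of the PAR-bZIP family, had 2009, 2258 and 1974 with vehicle and 1649.9, 1716 and 1709 with corticosterone. The corticosterone libraries were all below the vehicle libraries. The fall was small, from 2080.4 ± 155 to 1692 ± 36.5 (SD, n = 3 each), a change of -0.30 ± 0.05 (SE) on the log2 scale with an adjusted p of 8.7e-04 (limma), or 0.815-fold with a 95% interval of 0.752 to 0.882. Without a trend in limma's prior variance its adjusted p was 0.11.

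*Dbp* (ENSMUSG00000059824, chromosome 7, 45705088 to 45710203, plus strand), another D-box binding activator of the PAR-bZIP family, had 103, 111 and 128 with vehicle and 92.1, 97.2 and 104 with corticosterone. The highest corticosterone library lay within the vehicle range, at a level of 81 to 144 reads per library. Its log2 fold change of -0.22 ± 0.14 (SE) had an adjusted p of 0.36 (limma), with a 95% interval from 0.699-fold to 1.05-fold. Its 3′ end shares 539 exon bases (45709665 to 45710203, 18.0% of its exon length) with *Sphk2* on the opposite strand, which had 553 ± 18.3 with vehicle and 521 ± 34.4 with corticosterone (SD, n = 3 each).

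A short word, part of the REV-ERB and ROR element, was searched in the promoters because *Nfil3* is a known target of both receptors. Promoter windows (250 bases before to 50 after the start, RefSeq, GRCm38.p6) were found for 8 of the 9 members, not for *Bhlhe40*, and *Tef* had a window for each of 2 starts. This word, TAGGTCA, read on either strand, was found in the *Nfil3* window and in no window of another member. It was in 2.61% of the 32851 windows of all genes. Starts of windows, here and below, are those of RefSeq and can differ from the GENCODE gene spans given with each member. The stretch of 57 bases below ends at the RefSeq start of *Nfil3* (chr13:52981040-52981096, minus strand). Capitals mark the word, which lies 12 bases before that start and reads here as its reverse complement. By the GENCODE span, which ends at 52981073, the word (52981045 to 52981051) lies within the gene.

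Nfil3: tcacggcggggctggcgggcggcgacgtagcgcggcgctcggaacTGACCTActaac

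The D-box (TTATGTAA or TTACGTAA, either strand) was in no member's window and in 1.06% of all windows. The short word AGAACA, part of the element of the glucocorticoid receptor (either strand), was in 1 member window, the downstream start of *Tef*, 209 bases before the start, and in 19.0% of all windows. A match is a run of letters and not a measured binding site, and these windows cover little of the sequence that could control each gene.

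BHLHE40 and BHLHE41 (DEC1 and DEC2) are repressors that bind E-boxes, and CIART (CHRONO) binds BMAL1 and represses its activity. *Bhlhe40* (ENSMUSG00000030103, chromosome 6, 108660629 to 108666925, plus strand) had 1129.6, 1006 and 1009.5 with vehicle and 581, 574 and 655 with corticosterone. All 3 corticosterone libraries were lower by a wide gap. The mean fell from 1048.5 ± 70.2 to 604 ± 44.7 (SD, n = 3 each), a change of -0.80 ± 0.07 (SE) on the log2 scale with an adjusted p of 2.7e-07 (limma), or 0.575-fold with a 95% interval of 0.520 to 0.636. This was the largest change among the 9.

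*Bhlhe41* (ENSMUSG00000030256, chromosome 6, 145858243 to 145865558, minus strand) had 156, 194 and 159 with vehicle and 139, 146 and 152 with corticosterone. The groups did not overlap, but the gap between them was narrow. Its log2 fold change of -0.21 ± 0.12 (SE) had an adjusted p of 0.29 (limma), with a 95% interval from 0.724-fold to 1.03-fold. Exons of *Gm43909*, a locus on the opposite strand with a mean normalized count of 1.34 with vehicle and 3.09 with corticosterone, cover 19.0% of its exon length.

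*Ciart* (ENSMUSG00000038550, chromosome 3, 95878503 to 95882251, minus strand) had 81.9, 44.8 and 57.9 with vehicle and 64.2, 51.9 and 58.8 with corticosterone. The vehicle libraries enclosed the corticosterone libraries and spread widely, with a coefficient of variation of 30.6%, where the reads counted would give 11.8%. Its log2 fold change of -0.04 ± 0.22 (SE) had an adjusted p of 0.96 (limma). With 46 to 101 reads per library, the 95% interval of limma ran from 0.702-fold to 1.35-fold. This interval draws on the variance of all genes and not of *Ciart* alone. Without vehicle replicate 1 the log2 fold change was 0.19. A second locus, *Gm9176*, shares 20.8% of its 31-mers and had a mean of 0.885 with vehicle and no reads with corticosterone.

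The E-box CACGTG was found in windows of 3 of the 8 members, *Ciart*, *Tef* and *Bhlhe41*, and in 7.15% of all windows. These stretches are shown because the E-box is the element through which CLOCK and BMAL1 drive output genes and on which the products of *Bhlhe40* and *Bhlhe41* act. Capitals mark each E-box, whose reverse complement is the same word. They were taken from chr3:95882247-95882364 (minus strand) for *Ciart*, chr15:81802521-81802576 and chr15:81811251-81811306 (plus strand) for the upstream and downstream start of *Tef*, and chr6:145865543-145865598 (minus strand) for *Bhlhe41*.
Ciart: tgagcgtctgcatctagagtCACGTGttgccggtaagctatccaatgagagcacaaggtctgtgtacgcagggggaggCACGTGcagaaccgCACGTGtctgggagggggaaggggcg
Tef, upstream start: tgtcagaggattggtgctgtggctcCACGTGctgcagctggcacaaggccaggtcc
Tef, downstream start: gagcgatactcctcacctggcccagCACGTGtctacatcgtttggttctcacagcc
Bhlhe41: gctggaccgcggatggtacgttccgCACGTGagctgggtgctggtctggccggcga

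*Ciart* had 3 E-boxes, at 116, 58 and 44 bases before its RefSeq start, and *Tef* 1 before each RefSeq start, at 127 and 138 bases. *Bhlhe41* had 1, at 153 bases before its RefSeq start. By the GENCODE spans given above, both *Tef* E-boxes (81802546 to 81802551 and 81811276 to 81811281) lie within the gene. Those of *Ciart* and *Bhlhe41* lie outside, that of *Bhlhe41* (145865568 to 145865573) close to the span's end at 145865558. Of these 3 genes, *Tef* was called lower and the log2 fold changes of *Bhlhe41* and *Ciart* were -0.21 and -0.04. *Nr1d1* and *Dbp*, known to respond to CLOCK and BMAL1, had no CACGTG in these windows.

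The ratio of 2 genes in the same library does not depend on the size factor, and was used to compare responses. Of 8 ratios planned, 6 were computed, since 2 involve *Hlf*. Each was tested by exact permutation (two-sided), which with 3 libraries a group cannot give a p below 0.1, so that no ratio could pass an adjusted p of 0.05. The log2 ratio of *Nr1d1* to *Nr1d2* was -1.30, -1.43 and -1.07 with vehicle and -0.59, -0.62 and -0.70 with corticosterone, a difference of 0.63 (exact p = 0.1, adjusted p = 0.15). It was higher in every corticosterone library.

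For the opposing receptors, the log2 ratio of *Nr1d1* to *Rora* was 1.81 ± 0.157 with vehicle and 2.80 ± 0.183 with corticosterone (SD, n = 3 each) without overlap, a difference of 0.99 (exact permutation p = 0.1, adjusted p = 0.15). That of *Nr1d2* to *Rora* was 3.07 ± 0.239 and 3.43 ± 0.180, with overlapping groups (exact permutation p = 0.2, adjusted p = 0.24). For the D-box, the log2 ratio of *Dbp* to *Nfil3* was -2.46, -2.14 and -2.14 with vehicle and -3.29, -3.21 and -3.09 with corticosterone, lower in every corticosterone library by a mean of -0.95 (exact p = 0.1, adjusted p = 0.15).

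The log2 ratio of *Dbp* to *Tef* was -4.19 ± 0.217 with vehicle and -4.12 ± 0.0637 with corticosterone (SD, n = 3 each), a difference of 0.08 (exact permutation p = 0.6, adjusted p = 0.6). The difference was smaller than the spread between the vehicle libraries. The log2 ratio of *Bhlhe40* to *Bhlhe41* was 2.86, 2.37 and 2.66 with vehicle and 2.06, 1.98 and 2.10 with corticosterone. It was lower in every corticosterone library, by a mean of -0.58 (exact p = 0.1, adjusted p = 0.15).

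**Figure D2:**
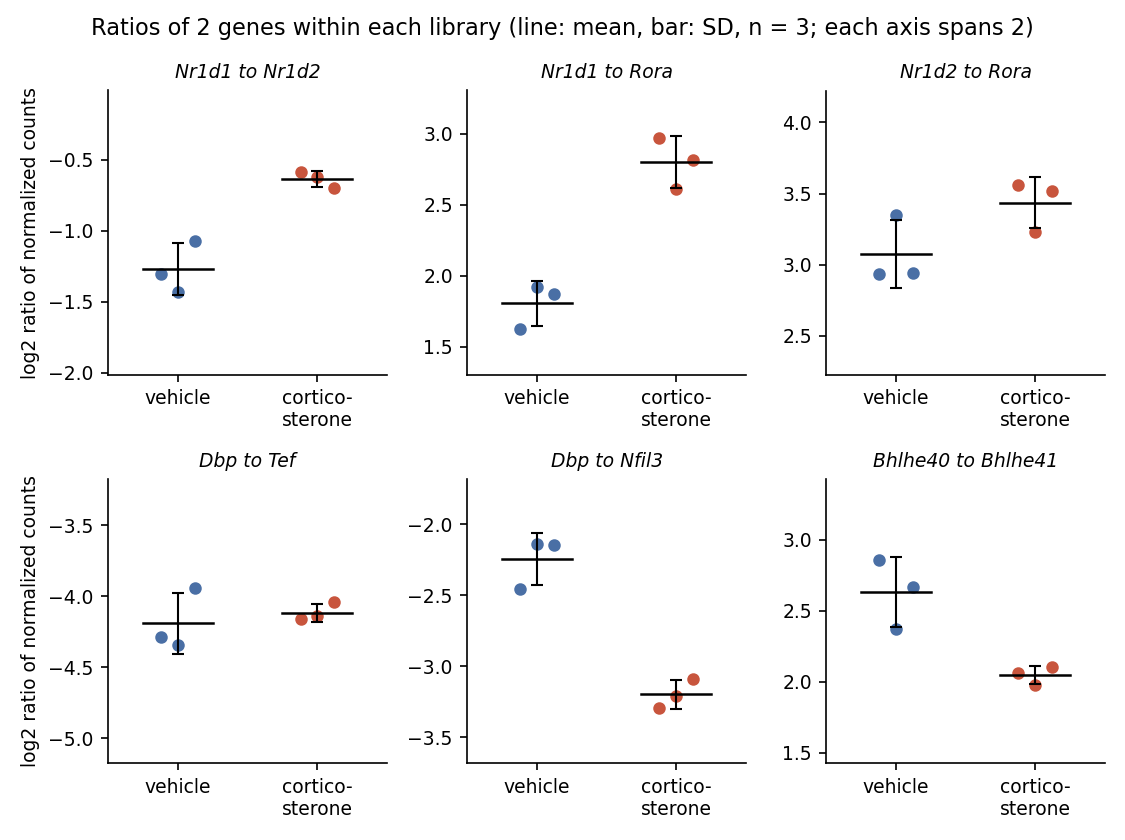
Log2 ratio of the normalized counts of 2 genes within each library (points), with the group mean (line) and SD (bar, n = 3), and with every vertical axis spanning 2 log2 units. The groups are apart for *Nr1d1* to *Nr1d2*, *Nr1d1* to *Rora*, *Dbp* to *Nfil3* and *Bhlhe40* to *Bhlhe41*, and overlap for *Nr1d2* to *Rora* and *Dbp* to *Tef*.

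Levels of the members were compared per kb of annotated exon, which understates genes with many alternative exons. With vehicle, *Nfil3* (267 ± 21.9 normalized counts per kb, SD, n = 3) and *Tef* (264 ± 19.7) stood highest and overlapped, followed by *Bhlhe40* (223 ± 14.9), *Nr1d2* (163 ± 21.9) and *Nr1d1* (118 ± 10.1), each apart from the next. *Dbp* (38.1 ± 4.31), *Ciart* (27.2 ± 8.33) and *Bhlhe41* (25.3 ± 3.19) formed a lower group in which neighbours overlapped. *Rora* was lowest, at 7.94 ± 0.280 over an exon length of 13.1 kb.

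After corticosterone *Nfil3* was alone at the top, with 442 ± 5.07 normalized counts per kb (SD, n = 3) against 215 ± 4.64 for *Tef*. *Nr1d1* stood at 182 ± 16.9 and *Nr1d2* at 161 ± 8.48, and their ranges over the libraries overlapped. Within each library, *Nr1d1* was above *Nr1d2* in all 3 corticosterone libraries and below it in all 3 vehicle libraries. *Bhlhe40* moved from the third to the fifth level, at 128 ± 9.50. *Dbp*, *Ciart*, *Bhlhe41* and *Rora* kept their order.

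**Figure D3:**
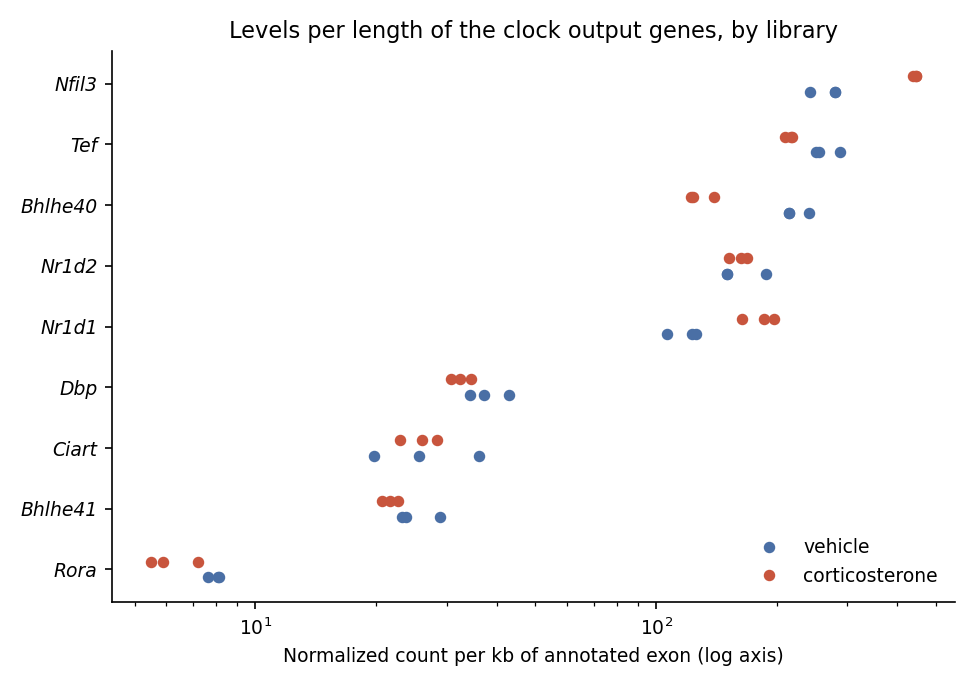
Normalized count per kb of annotated exon (log axis) for each clock output gene, 1 point per library, with vehicle in blue below and corticosterone in red above, and genes in the order of their vehicle mean. *Nfil3* separates from *Tef* with corticosterone, and *Nr1d1* lies below *Nr1d2* with vehicle and overlaps its upper end with corticosterone.

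In the same fit, of 9 core loop genes (*Per1*, *Per2*, *Per3*, *Cry1*, *Cry2*, *Arntl*, *Arntl2*, *Clock* and *Npas2*), 3 were called higher and 1 lower, and 2 of them were past the 2-fold threshold, *Per1* (log2 fold change 2.02) and *Per2* (1.33). Over all genes, 8.49% were called higher, 8.2% were called lower and 2.78% were past that threshold. *Arntl*, a target repressed by REV-ERB receptors, had 225, 194 and 221 normalized counts with vehicle and 253, 326 and 260 with corticosterone, a change of 0.38 ± 0.11 (SE) on the log2 scale with an adjusted p of 0.023 (limma). *Arntl* and *Nr1d1* were thus both called higher at this 1 time, and whether REV-ERB repression of *Arntl* changed was not tested. The *Arntl* call was not checked under other settings of the fit. *Per3* fell, from 465, 573 and 457 to 234, 245 and 283, a change of -0.97 ± 0.10 (SE) on the log2 scale with an adjusted p of 2.0e-06 (limma), opposite to *Per1* and *Per2*.

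*Cry1* (-0.16), *Cry2* (0.00), *Arntl2* (0.08) and *Clock* (0.07) did not pass the test, with limma adjusted p-values of 0.21, 0.99, 0.69 and 0.43. *Npas2* had at most 3 reads in a library and gives no usable fold change.

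**Figure D4:**
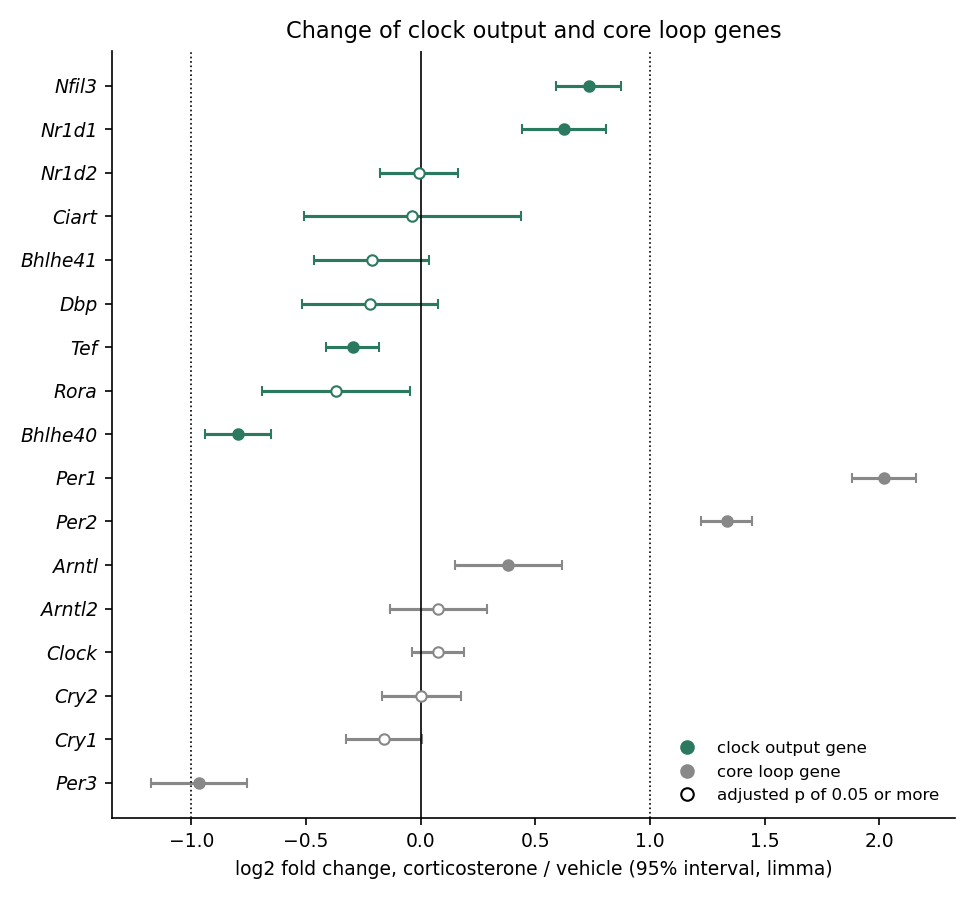
Log2 fold change with corticosterone and its 95% interval (limma, 3 against 3 libraries) for the 9 clock output genes (green) and 8 core loop genes (grey, without *Npas2*), filled where the adjusted p is under 0.05, with dotted lines at the 2-fold limits. All 9 outputs lie inside the limits, between -0.80 and 0.73, while *Per1* and *Per2* lie outside.

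Of 13 genes that modify clock proteins or act as their cofactors, 0 were called higher and 3 lower with limma. The 3 were *Gsk3b*, *Sirt1* and *Btrc*, by -0.19, -0.31 and -0.18 on the log2 scale (limma adjusted p = 0.014, 0.031 and 0.046). At an unadjusted p under 0.05 there were 6 of the 13, beside 26.3% of all genes, with -0.09 as the list's median on the log2 scale. *Ncor1* and *Hdac3*, the corepressor and deacetylase through which REV-ERB receptors act and named here for that role, had 0.02 and 0.05 (limma adjusted p = 0.75 and 0.53). Of 6 widely rhythmic output genes, 4 were called higher and 0 lower: *Tsc22d3* (1.49), itself a glucocorticoid target, *Usp2* (0.50), *Por* (0.49) and *Tspan4* (0.44), while *Wee1* and *Alas1* had 0.08 and 0.10. Beside these calls, 8.49% of all genes were called higher and 8.2% lower. Only *Tsc22d3* among the 6 was past the 2-fold threshold, as were 2.78% of all genes. *Rorb*, a paralog of *Rora*, had 3 to 15 reads per library.

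The genes whose log2 values followed *Bhlhe40* most closely over the 6 libraries, among 10558 genes with a mean of at least 100, were *Col11a2*, *Timp3* and *Txndc5* (Pearson r = 0.998 each). For *Nfil3* they were *Tax1bp1*, *Gm48709* and *Elovl7* (r = 0.999 each). With 2 groups of 3 libraries, such values mostly restate a difference between the groups. Their log2 fold changes were -1.60, -0.55 and -0.22 for the first set and 0.41, 0.59 and 0.85 for the second.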

How the data were processed

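RNA-seq libraries of 3 vehicle and 3 corticosterone cultures were compared, grouped by the labelled treatment. The deposited values are a signal on a linear scale that the authors made from reads per gene. Their columns are named FPKM, but 100% of values were whole multiples (within 0.01 of a read) of 1 step per library, equal to the inverse of its median-of-ratios size factor, so they are normalized counts, and whole reads were recovered from them. The submitters' processing notes give the build mm10. The aligner, counter, annotation and strand setting are not given in the sources used here. The kit was NEB Next Ultra.

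Genes (24008 of 24016) were named by GENCODE M21. limma 3.58.1 (R 4.3.3) was fitted with a variance trend on log2(value + 0.1) across all genes with a mean of at least 0.1, which removed no gene. Fold changes are differences of mean log2 values, which depend on the pseudocount in genes with few reads. The script was tested on simulated data whose changes were larger than that of any member, so this test does not bear on the calls of members. edgeR 4.0.16 and DESeq2 1.42.0 on whole reads, other scalings, filters and pseudocounts, a replicate block and leaving out each library were alternatives. Exact tests used SciPy 1.17.1. A count of 0 to 3 reads corresponds to at most 2.32 to 3.84 normalized counts.

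The members and lists were chosen with earlier results of these data known. The text names all members, the core loop genes, pathway genes past the threshold, 3 glucocorticoid targets, and the 3 genes most correlated with each of the 2 members of largest change. Other pathway genes, and genes that overlap a member, were named for their role or position after values were seen. Counting error alone sets the counting coefficients of variation.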

Additional observations from a re-analysis of the deposited data

How the results depend on the processing

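Over 17 alternatives 0 members passed the 2-fold threshold, and each of the 9 members kept its side of the adjusted p threshold of 0.05, with the exception of *Tef*. Without a trend in limma's prior variance *Tef* had an adjusted p of 0.11, so that 1 member and not 2 was called lower. In that setting the limma adjusted p rose to 0.045 for *Nr1d1*, 0.014 for *Nfil3* and 0.014 for *Bhlhe40*. For single genes the alternatives were examined in the members only, and not in the core loop or the other lists. The log2 fold changes near 0 changed sign in *Nr1d2* (0.10 without vehicle replicate 2 and 0.03 without corticosterone replicate 3, in a range of -0.064 to 0.099 when 1 library was left out) and *Ciart* (0.19 without vehicle replicate 1 and 0.04 without corticosterone replicate 2, in a range of -0.24 to 0.19). Over all genes, 668 passed the threshold, 483 to 589 when 1 library was left out, 554 with edgeR and 514 with DESeq2. Those lower numbered 337, and 204 to 321 when 1 library was left out, with 220 without vehicle replicate 2 and 204 without vehicle replicate 3. The labels number the cultures 1 to 3 in both groups, but deviations of same-numbered libraries over 13880 genes correlated at -0.044, 0.001 and 0.023, so the numbers were not taken as pairs. With the replicate block 591 genes passed, and 4 members had an adjusted p under 0.05. Scaling by total reads moved the median log2 fold change of genes with a mean of at least 10 from -0.005 to -0.047, and put 7 members apart instead of 6. The share of all genes apart was computed for the deposited scaling only, so the 7 have no background beside them. At 46 to 144 reads per library, the 95% intervals of *Ciart* and *Dbp* reached down to 0.702-fold and 0.699-fold.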
